A study of Mus musculus with 2 samples.

Results

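Lymphatic endothelial cells were chosen by a gate on their own transcripts, and 57 of the 14099 barcodes in the 2 libraries met it. UMI counts, which tally captured RNA molecules, were made from the non-myocyte fraction of the ventricles. The animals were wild-type C57BL/6, aged 10 to 12 weeks and untreated, and each of the 2 mice gave its own library. The digested ventricles had been freed of atria, of myocytes by low-speed spins and of red cells by lysis, and live cells were sorted on exclusion of a dead-cell dye before droplet capture with a 3' kit. Both mice belong to 1 group, so the comparisons below run between cell classes of the same 2 hearts. How far lymphatic cells survive digestion, spins and sorting better or worse than other cells was not tested.

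Lymphatic endothelial cells line the vessels that drain fluid, lipids and immune cells from tissue. The homeobox factor Prox1 sets and keeps their identity, the receptor Flt4 (VEGFR-3) receives the growth factor Vegfc, and the chemokine Ccl21 draws dendritic cells and T cells that carry Ccr7 into the vessel. In the heart, lymphatic vessels run through the ventricular wall among blood capillaries, whose endothelium is specialised for taking up fatty acids to feed the myocytes.

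A member needed at least 500 UMIs and at most 10% mitochondrial UMIs, at least 3 UMIs of Ccl21a, Mmrn1 and Prox1 together from at least 2 of these genes, and at most 3 UMIs each of the C1q genes (C1qa, C1qb and C1qc together, a macrophage complement set) and of Dcn (a fibroblast proteoglycan). Of the 12951 barcodes within the UMI and mitochondrial limits, 13 of 7015 in mouse 1 (0.185%, exact 95% interval 0.0987 to 0.317) and 44 of 5936 in mouse 2 (0.741%) were members. Blood endothelial cells, taken as barcodes with at least 2 UMIs of Pecam1, Cdh5 and Egfl7, none of the 3 lymphatic genes and the same C1q and Dcn limits, numbered 927 and 1226. Lymphatic cells made up 1.38% (0.738 to 2.35) of both endothelial gates in mouse 1 and 3.46% (2.53 to 4.62) in mouse 2, intervals that do not overlap but cover counting error only. The lymphatic members held 20761 UMIs in mouse 1 and 74373 in mouse 2, at a median of 1539 and 1544 per cell. Blood endothelial cells had similar depth, with a median of 1479 and 1406 UMIs. The members faced no minimum for Pecam1, Cdh5 and Egfl7, so the 2 classes were not held to 1 limit on endothelial RNA. Of the 57 members, 36 had at least 2 UMIs of these genes together and 51 had at least 1. The 2 libraries shared 65 cell barcodes, none of them a lymphatic member.

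The 3 genes of the gate describe the members and were not tested. Ccl21a gave 1116 UMIs in mouse 1 and 4160 in mouse 2, or 53755 and 55934 CPM (a gene's UMIs scaled to a common total of UMIs over the summed cells of a class). That is 5.38% and 5.59% of all their UMIs, close to the nuclear RNA Malat1 at 5.79% and 5.14%. Mmrn1, a secreted multimerin, stood at 2986 and 2313 CPM. Prox1, a transcription factor, gave only 4 and 25 UMIs (193 and 336 CPM). The cell counts differed between the mice, while the level of Ccl21a per UMI was within 1541 CPM (SD, n = 2) of the mean of 54844. In the fibroblast and macrophage gates, where no lymphatic gene was asked for, Ccl21a stood at 10.7 and 8.95 CPM (means of the mice). Barcodes that met the 3-gene gate but exceeded a limit, 3 in the fibroblast and 2 in the macrophage gate, held 53 of the 81 and 68 of the 149 Ccl21a UMIs there.

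Ccl21a lies on chromosome 4 at 42772860 to 42773993 of mm10, and near-identical copies are annotated on that chromosome. The transcript of Gm21541, at 41903610 to 41904743, differs from that of Ccl21a at 6 of 870 bases, of which 2 lie in the coding part and 3 in the 3' UTR. The coding differences are shown to give how alike the copies are. Reads of a 3' kit come mostly from near the end of the transcript, where the differences in the 3' UTR lie, at transcript bases 640, 812 and 856. The differing base is in capitals, and positions count from the first base of the start codon.
Ccl21a, coding bases 69 to 98: cagtgatggagggggTcaggactgctgcct
Gm21541, the same bases: cagtgatggagggggAcaggactgctgcct
Ccl21a, coding bases 179 to 208: cggcaatcctgttctCaccccggaagcact
Gm21541, the same bases: cggcaatcctgttctTaccccggaagcact
The substitutions from Ccl21a to Gm21541 were T84A and C194T. Gm21541 collected 18 and 46 UMIs in the lymphatic cells, 1.61% and 1.11% of the Ccl21a count, with 0 in blood endothelial cells. Ccl21b.1 had 4 and 23 UMIs and Gm13304 had 2 and 3. How the counting shared reads among these copies is not given in the sources used here, so the values of the copies are uncertain and Gm21541, the gene with the largest fitted change below, is no evidence separate from Ccl21a.

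The lymphatic label was set beside 18 markers that the gate did not use, a list chosen with earlier results of these data known. Of the 18, 16 passed the filter on low counts. In the edgeR quasi-likelihood test against blood endothelial cells, 14 of the 16 were called higher and 0 lower (Benjamini-Hochberg adjusted p below 0.05 and at least a 2-fold change), where 2.91% of all 11482 genes tested were called higher and 2.26% lower. Their median log2 fold change was 5.81, against -0.17 over all genes tested. The filter ran over the sums of 4 classes, so some genes tested, such as Fst, had 0 UMIs in both endothelial classes. Such genes lower the shares over all genes. Others, such as Reln, had few UMIs outside the lymphatic class and passed the filter through that class, where they were high. Lyve1, a hyaluronan receptor of lymphatic vessels on chromosome 7, gave 57 and 135 lymphatic UMIs, or 2746 and 1815 CPM, against 45.9 and 17.0 CPM in blood endothelial cells. Both mice were far higher in the lymphatic gate, with a log2 fold change of 6.30 ± 0.22 (SE) and an adjusted p of 7.9e-173. Fgl2, a fibrinogen-like protein, stood at 2119 and 1708 CPM against 5.58 and 6.69 (log2 8.22 ± 0.30, adjusted p = 2.13e-164). Reln, the secreted glycoprotein reelin, gave 19 and 60 UMIs in the lymphatic cells and 1 and 0 UMIs in 2153 blood endothelial cells. The pooled CPM ratio of Reln was 2953 (95% counting interval 515 to 118077).

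Flt4, the receptor of Vegfc, stood at 626 and 457 CPM in lymphatic against 36.6 and 31.9 CPM in blood endothelial cells (log2 3.92 ± 0.38, adjusted p = 1.59e-22). Pdpn (podoplanin), a mucin-like protein of lymphatic vessels, gave 4 and 16 UMIs against 1 and 0. It was the marker with the nearest level in the fibroblast gate, at 76.5 CPM. Thy1, a surface glycoprotein, reached 482 and 524 CPM against 8.69 and 4.12. Pard6g, a cell polarity protein, reached 674 and 914 CPM against 11.2 and 9.26. Nrp2, a co-receptor for Vegfc, and Foxc2, a valve factor, were the 2 tested markers that were not called. Nrp2 stood at 289 and 538 CPM against 311 and 301 (log2 0.63 ± 0.28, adjusted p = 0.24), so the mice overlapped the blood endothelial values. Tbx1 and Cldn11 did not pass the filter, with 4 and 8 UMIs for Tbx1 and 0 and 1 for Cldn11 in the lymphatic cells and 0 in blood endothelial cells.

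**Figure D1:**
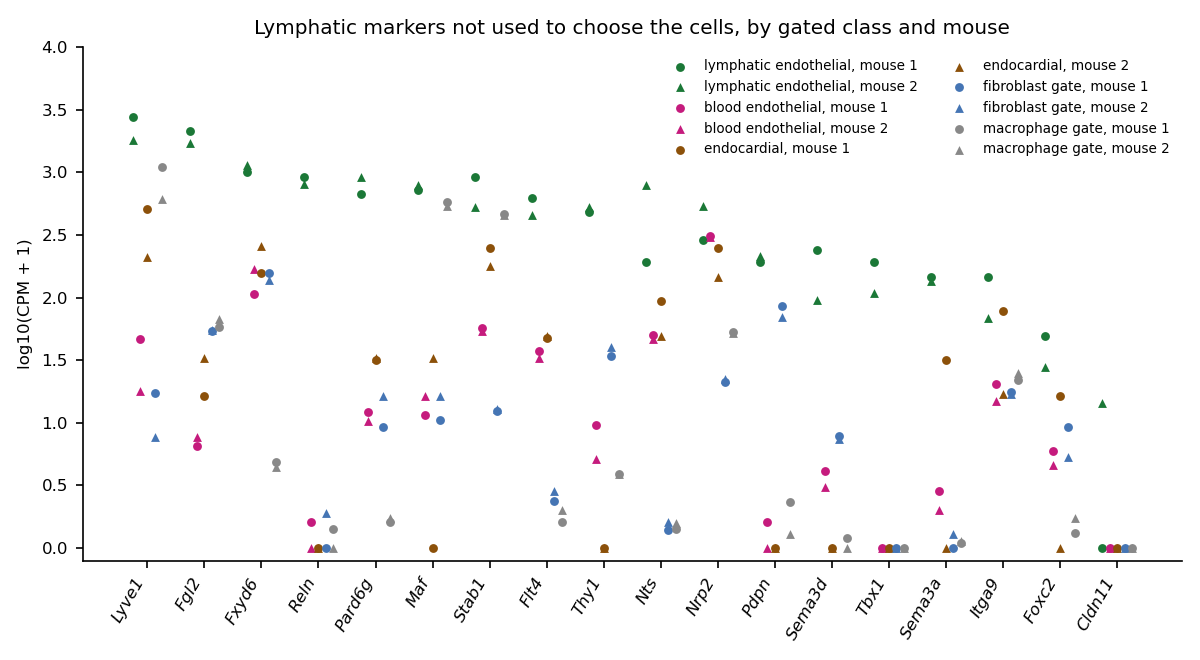
Level of the 18 lymphatic markers that did not choose the cells, as log10(CPM + 1), in 5 gated classes; circles are mouse 1 and triangles mouse 2, and each point is a sum over the cells of 1 class in 1 mouse. The lymphatic points lie highest for most markers; the macrophage points come nearest for Lyve1, Maf and Stab1, and the blood endothelial points overlap them for Nrp2.

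Cell by cell, Ccl21a was found in 56 of the 57 members, with a median of 67 UMIs and a highest value of 295. It took a median of 5.17% of a cell's UMIs, and up to 16.6%. At least 50 Ccl21a UMIs were counted in 38 cells, and 10 or fewer in 4. Mmrn1 was found in 55 cells, and Prox1 in 20. All 3 genes together were seen in 17 cells, 3 in mouse 1 and 14 in mouse 2. Of 5 markers outside the gate (Lyve1, Flt4, Pdpn, Reln and Fgl2), every member carried at least 1, 53 carried at least 2 and 40 at least 3. Lyve1 was found in 47 cells, Reln in 42, Fgl2 in 40, Flt4 in 28 and Pdpn in 15.

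The shares with a UMI were far from those in blood endothelial cells. Lyve1 was detected in 12 of 13 and 35 of 44 lymphatic cells, or 92.3% (64.0 to 99.8) and 79.5% (64.7 to 90.2), against 5.18% and 2.04% of blood endothelial cells. With every cell thinned to 1000 UMIs, which kept 12 and 39 of the lymphatic cells, the shares were 91.7% and 74.4% against 3.76% and 1.53%. Reln was detected in 84.6% and 70.5% of lymphatic cells and in 0.108% and 0% of blood endothelial cells, where the exact interval for 0 of 1226 cells reaches 0.3004%. Of genes tied to valves and collecting vessels, Foxc2 was seen in 3 cells, the connexin Gja4 in 6 and Cldn11 in 1. Of the 10 cells with any of these, 8 (80%) also carried Lyve1, near the 82.5% of all 57 members. Neither Foxc2 nor Gja4 was called against blood endothelial cells.

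Few barcodes lay near the edge of the gate. Only 1 member, in mouse 2, had 3 or 4 UMIs of the 3 genes, and no barcode within the C1q and Dcn limits had exactly 1 UMI from each of 2 genes. Outside, 3 barcodes had at least 3 UMIs from 1 gene only. The C1q and Dcn limits set aside 11 further barcodes that met the lymphatic part of the gate.

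A pair of members stood apart in blood endothelial genes. Fabp4, the fatty acid-binding protein of heart capillaries, gave 108 UMIs over the 57 cells, and 28 of 34 in mouse 1 and 37 of 74 in mouse 2 came from 1 cell each. Those cells had 7 and 12 Ccl21a UMIs, 9 and 5 Mmrn1 UMIs and 0 Lyve1 UMIs, and 6 Cd36 UMIs each. The other 55 cells held 330 and 512 CPM of Fabp4, against 22987 and 25048 CPM in blood endothelial cells, and 53 members had 3 Fabp4 UMIs or fewer. Doublet calls by Scrublet marked 394 and 244 barcodes in the libraries and 0 lymphatic members. Without the pair, an alternative chosen after their values were seen, 325 genes were called higher and 273 lower in lymphatic than in blood endothelial cells, against 334 and 259 with them.

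**Figure D2:**
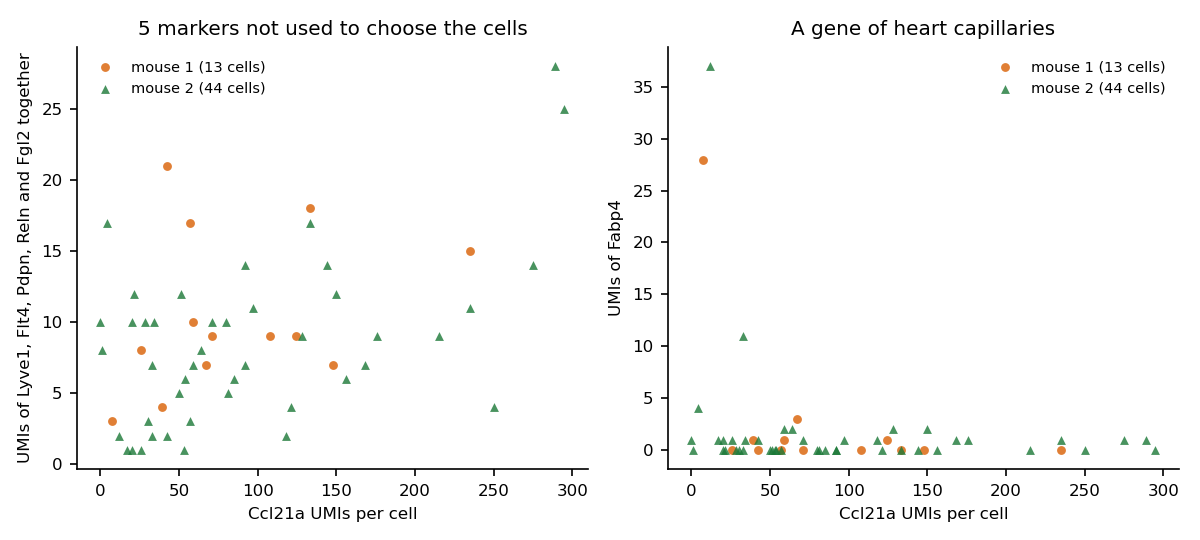
UMIs in each of the 57 lymphatic endothelial cells, with Ccl21a on the x axis and, on the y axis, the sum of 5 markers that did not choose the cells (left) or Fabp4 (right); circles are the 13 cells of mouse 1 and triangles the 44 of mouse 2. Every cell has at least 1 UMI of the 5 markers, and the cells with 28 and 37 Fabp4 UMIs have few Ccl21a UMIs.

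The marker lists of other cell types given here summed to between 0 and 1062 CPM in the members. The 4 endocardial markers (Npr3, Cytl1, Nrg1 and Fst), the 3 T cell markers in the tables, 4 mesothelial markers, 3 Schwann cell markers and 2 hemoglobin genes were at 0 in both mice. Of 9 macrophage markers, 6 and 8 were detected, and the list summed to 1060 and 1062 CPM in lymphatic cells against 1076 and 956 CPM in blood endothelial cells. The macrophage genes Csf1r (0 and 3 UMIs), Adgre1 (0 and 1) and Fcgr1 (0 and 0) were near or at 0. Blood endothelial cells also held only 17.2, 5.78 and 3.50 CPM of them (means of the mice). Lyz2, a more abundant macrophage marker, gave 8 and 38 UMIs. It stood at 385 and 511 CPM against 545 and 512 CPM and was not called. The 9 fibroblast markers summed to 578 and 296 CPM against 526 and 511 CPM, with Col1a1, Col1a2 and Tcf21 at 0. Blood endothelial cells held only 5.26, 8.41 and 4.80 CPM of these genes (means of the mice). Gsn, a more abundant fibroblast marker, stood at 337 and 161 CPM against 313 and 287 CPM and was not called. The 5 cardiomyocyte markers summed to 963 CPM in mouse 1 and 188 CPM in mouse 2, against 514 and 184 CPM in blood endothelial cells. The gate itself capped C1q and Dcn. In the lymphatic sums 1 UMI is 48.2 CPM in mouse 1 and 13.4 CPM in mouse 2. Zeros therefore say little for lists that were also low in blood endothelial cells. Those cells held 14.3 and 14.4 CPM of the T cell list, 2.48 and 8.75 of the Schwann list and 1.24 and 0 of the hemoglobin genes.

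Over all genes, lymphatic endothelial cells were called higher than blood endothelial cells in 334 of 11482 tested genes (2.91%) and lower in 259 (2.26%). The direction held in each mouse for 328 of the higher and 256 of the lower genes. A fraction of a UMI was added to every count for this. In the shallow lymphatic sum of mouse 1 the addition can turn a count of 0 into a higher score. Csf1r, at 0 UMIs against 14.3 CPM in that mouse, scored 0.72 on the log2 scale. Agreement among the higher genes therefore says little where UMIs are few. At least 5 lymphatic UMIs in each mouse were counted for 118 of the 334 higher genes. Without the mouse as a replicate block, 207 genes were called higher and 138 lower. The split depended on the scaling: 56.3% of called genes were higher as reported, and 30.9% (216 higher, 484 lower) when scaling factors were computed over all genes, which moved the median log2 fold change of all genes from -0.17 to -0.65. Of the 334 higher genes, 190 were also called higher and 11 lower against the fibroblast gate, and 268 higher and 7 lower against the macrophage gate.

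**Figure D3:**
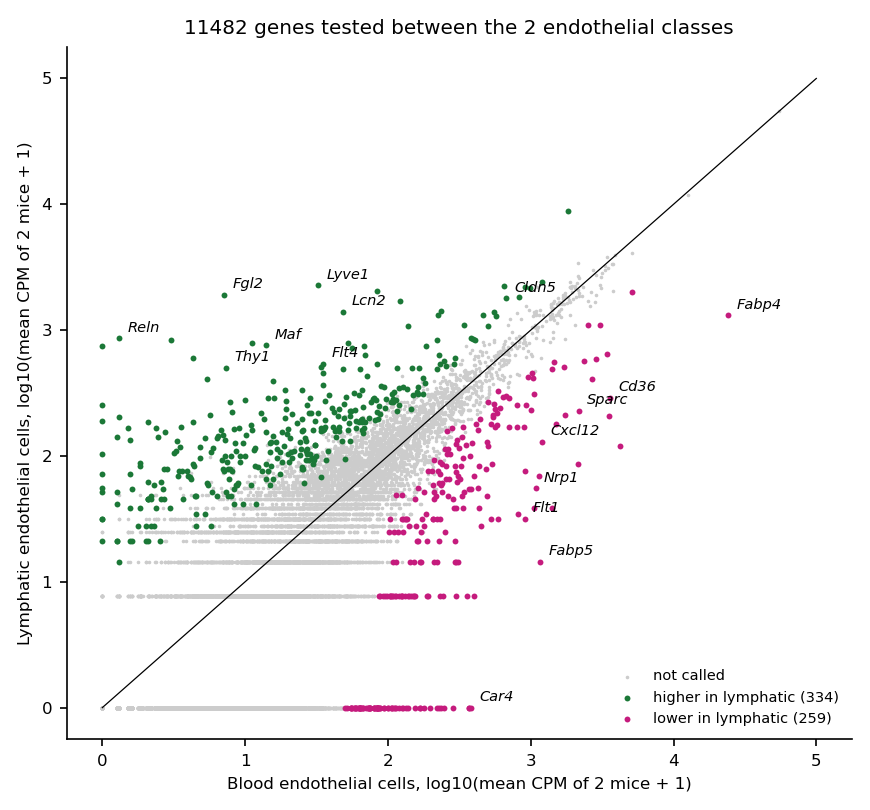
Mean level of the 11482 genes tested, as log10(CPM + 1), in blood endothelial cells (x axis) and lymphatic endothelial cells (y axis); each point is a gene, the line marks equal levels, and colour marks the 334 genes called higher and the 259 called lower in lymphatic cells. The rows of points at the bottom are genes with 0, 1 or a few lymphatic UMIs, and Fabp4 and Reln lie far from the line on opposite sides.

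Among higher genes with at least 5 UMIs in each mouse, the largest fitted changes after Gm21541 were those of Htr2b, Reln, AA467197 and Fgl2. Htr2b, a serotonin receptor on chromosome 1, gave 5 and 10 UMIs in 13 and 44 lymphatic cells and 0 in all 2153 blood endothelial cells, so its level was at least 187-fold higher (a floor of 3 UMIs over the blood endothelial group). It gave 0 and 1 UMIs in the fibroblast gate and 0 in the macrophage gate. It therefore passed the filter on low counts only through the lymphatic sums, where it was high. Its call was lost in DESeq2. AA467197 stood at 1397 and 282 CPM against 2.48 and 1.54 (log2 8.41 ± 0.56). Abi3bp, a matrix protein, stood at 626 and 565 CPM against 2.48 and 4.12 (7.42 ± 0.43). Adgrg3, an adhesion G protein-coupled receptor, reached 530 and 282 CPM against 6.20 and 2.57 (6.56 ± 0.61). The semaphorin Sema3d, with 5 and 7 UMIs, and the solute carrier Slc45a3, with 6 and 6, were called on few molecules (5.77 ± 0.86 and 5.61 ± 0.83). In each of these genes the lower mouse of the lymphatic class was above the higher mouse of the blood endothelial class.

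Fth1, the ferritin heavy chain, was named after its values were seen, as the most abundant nuclear gene after Ccl21a, Malat1 and Tmsb4x. It gave 194 and 621 lymphatic UMIs, or 9344 and 8350 CPM, against 1837 and 1828 CPM in blood endothelial cells. The log2 fold change was 2.27 ± 0.12 (adjusted p = 9.69e-79). The light chain Ftl1 was not called (0.19 ± 0.13, adjusted p = 0.58).

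The 15 genes with the largest fitted falls were all at 0 UMIs in the lymphatic cells of both mice, so only lower bounds can be given. Carbonic anhydrase 4 (Car4), an enzyme of the capillary surface, had 604 and 745 UMIs in blood endothelial cells (375 and 383 CPM) and was at least 12.0-fold lower, the floor of 3 UMIs now standing for the lymphatic group (adjusted p = 5.59e-13). The junction protein Jam2 was at least 11.8-fold lower, the potassium channel Kcna5 at least 11.3-fold and Sox17, a transcription factor of arterial endothelium, at least 8.95-fold. The apelin receptor Aplnr, the homeobox factor Meox2 and the calcitonin-receptor partner Ramp3 were at least 7.62-fold, 6.45-fold and 4.89-fold lower. The others were Ifi203, Bcam, Car8, Emp2, Klk8, Slc28a2, Myo10 and Efnb1, with bounds from 7.84 down to 3.97. In all, 73 of the 259 lower genes had no lymphatic UMI.

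The fatty acid program of heart capillaries was lower in lymphatic cells. Of 26 tested genes on a list of capillary fatty acid handling, 16 were called lower and 0 higher, with a median log2 fold change of -2.45. Over all tested genes, 2.26% were called lower and 2.91% higher. Fabp4 stood at 1638 and 995 CPM against 22987 and 25048 CPM, and fell by 4.33 ± 0.14 on the log2 scale (adjusted p = 1.37e-193). The fatty acid translocase Cd36 stood at 337 and 242 CPM against 3692 and 3457, and fell by 3.83 ± 0.23. Lipoprotein lipase (Lpl), which frees fatty acids from lipoproteins, stood at 289 and 67.2 CPM against 2087 and 935. Fabp5 had 0 and 2 UMIs, and its pooled ratio of blood to lymphatic CPM was 56.1 (15.5 to 463). Of 3 transcription factors on the list, Meox2 was lower at 0 UMIs, Tcf15 was lower at 96.3 and 53.8 CPM against 692 and 1120, and Pparg was not called, with 0 and 4 UMIs against 218 and 187 (log2 -1.40 ± 0.66, adjusted p = 0.31). Gpihbp1, the capillary anchor of lipoprotein lipase, kept a higher level, at 1301 and 887 CPM against 2698 and 2379, and its call was lost without the C1q and Dcn limits on blood endothelial cells.

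Among 20 tested genes of VEGF and angiopoietin signalling, 2 were called higher and 6 lower, against 2.91% and 2.26% of all tested genes. The receptors split. Flt4 and the ligand Pgf were higher, Pgf at 96.3 and 296 CPM against 18.6 and 29.3. Flt1 (VEGFR-1) had 1 and 1 lymphatic UMIs against 1671 and 1504, and Nrp1, a co-receptor, had 2 and 1 against 1656 and 2209. The pooled ratio of blood to lymphatic CPM was 42.5 (11.7 to 351) for Flt1 and 34.5 (11.8 to 167) for Nrp1. Kdr (VEGFR-2) was not called, at 289 and 296 CPM against 472 and 534 (log2 -0.77 ± 0.30, adjusted p = 0.14). Vegfc, the ligand of Flt4, was at 0 UMIs in lymphatic cells and at 33.5 and 91.1 CPM in blood endothelial cells, at least 2.06-fold lower. Tek, the angiopoietin receptor, had 0 and 2 UMIs against 232 and 304, and its call was lost in DESeq2 and without the replicate block. Tie1, its partner, stood at 241 and 296 CPM against 259 and 284 and was not called (log2 0.05 ± 0.33, adjusted p = 0.97).

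**Figure D4:**
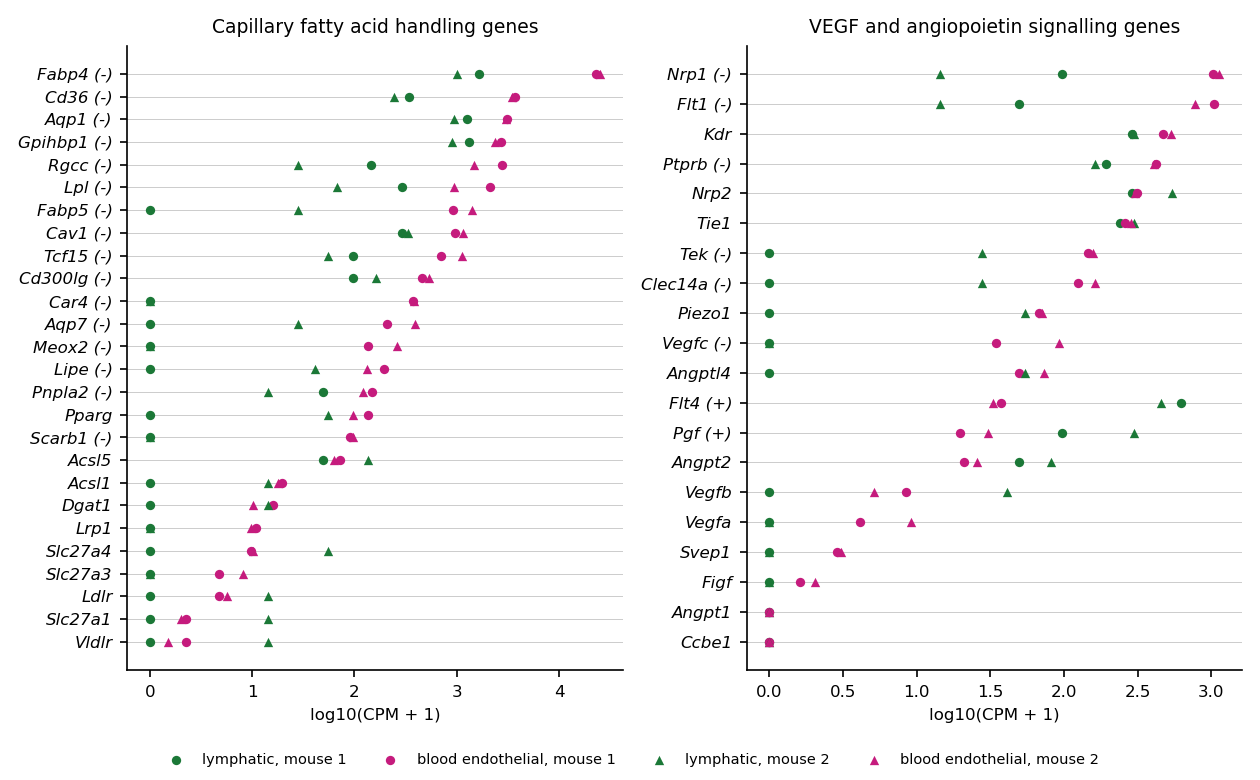
Level of each tested gene on the lists of capillary fatty acid handling (left) and of VEGF and angiopoietin signalling (right), as log10(CPM + 1) on the x axis, in lymphatic (green) and blood endothelial cells (pink); circles are mouse 1, triangles mouse 2, and a plus or minus after the name marks genes called higher or lower in lymphatic cells. The 16 lower genes on the left include most of the abundant ones, and on the right Flt4 and Pgf lie higher while Nrp1 and Flt1 lie lower.

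Of 20 tested lymphatic transcription factors, 3 were called higher (Maf, Nr2f2 and Lmo2) and 1 lower (Fli1). The shares over all tested genes were 2.91% higher and 2.26% lower. Maf stood at 723 and 793 CPM against 10.5 and 15.4 (log2 5.86 ± 0.31, adjusted p = 2.06e-75). It also stood at 575 and 533 CPM in the macrophage gate, and was not called highest of the classes. Nr2f2 (COUP-TFII), a venous and lymphatic factor that works with Prox1, stood at 578 and 497 CPM against 91.2 and 75.6 (2.62 ± 0.32). Lmo2 stood at 145 and 390 CPM against 70.7 and 79.2 (2.04 ± 0.35). Sox18, which switches on Prox1 in the embryo, was not called, at 145 and 565 CPM against 706 and 678. Klf2, a factor of sheared endothelium, passed the p threshold (adjusted p = 0.000434) at a change under 2-fold, a log2 fold change of -0.69 ± 0.16. The median of the list was -0.09, close to that of all genes, and the single lower call, Fli1, was lost in DESeq2, without the replicate block and without the C1q and Dcn limits.

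Genes of leukocyte traffic were called in both directions, 5 higher and 6 lower of 27 tested, against 2.91% and 2.26% of all tested genes. The higher set held scavenging and decoy receptors and the cytokine Il7. Stab1, a scavenger receptor, stood at 915 and 524 CPM against 55.8 and 53.5 (log2 3.56 ± 0.29). Ackr2, a decoy receptor for inflammatory chemokines, had 2 and 5 UMIs against 1 and 2, a pooled ratio of 87.2 (19.9 to 523). Il7, a cytokine that keeps lymphocytes alive, had 3 and 14 UMIs against 2 and 3 (6.93 ± 0.88). Reticular stroma also makes Il7. Of its other markers, Ccl19 had 1 and 0 UMIs in these cells and Tnfsf11 had 0 and 0. Tnfsf11 was also at 0 in blood endothelial cells and at 0.098 and 0.12 CPM in the fibroblast and macrophage gates. Whether Il7 came from such stroma was not tested. Mrc1, the mannose receptor, stood at 193 and 94.1 CPM against 16.1 and 13.4 (3.04 ± 0.58), but at 0.11 on the log2 scale without the C1q and Dcn limits on blood endothelial cells. The chemokine Cxcl12 was lower, at 96.3 and 161 CPM against 1095 and 1310 (-3.09 ± 0.31), and the leukocyte adhesion protein Vcam1 had 1 and 0 UMIs against 576 and 277. Lower calls for S1pr1, Icam2 and Cd200 and the higher call for Ackr3 were each lost under at least 1 other setting.

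Basement membrane and matrix genes also split, with 6 called higher and 8 lower of 33 tested, against 2.91% and 2.26% of all tested genes. The metalloproteinase inhibitor Timp2 stood at 578 and 699 CPM against 59.6 and 75.6 (log2 3.30 ± 0.25), and Ltbp4, a TGF-beta binding protein, at 1252 and 955 CPM against 364 and 321 (1.66 ± 0.21). Fbln5, an elastic fibre protein, and Igfbp4 were higher by 2.44 ± 0.33 and 2.71 ± 0.37. In the other direction, the collagen-binding protein Sparc stood at 241 and 215 CPM against 2196 and 2150 (-3.31 ± 0.24), and Igfbp7 at 482 and 336 CPM against 2880 and 2483 (-2.81 ± 0.20). Timp4, the inhibitor found mainly in heart, had 2 and 3 lymphatic UMIs against 1868 and 2219 (-4.39 ± 0.39). Sparcl1 had 1 and 2 against 1533 and 2276, a pooled ratio of blood to lymphatic CPM of 34.0 (11.6 to 165).

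Junction genes gave 4 higher and 2 lower calls of 20 tested, where 2.91% of all tested genes were higher and 2.26% lower. Claudin-5 (Cldn5), the main claudin of endothelial tight junctions, stood at 1397 and 2205 CPM against 532 and 810 (log2 1.42 ± 0.19, adjusted p = 2.68e-11). The call was lost with scaling over all genes, at 0.90. Pvrl2 (nectin-2) stood at 337 and 242 CPM against 19.9 and 35.0 (3.22 ± 0.47). The adhesion protein Esam was lower, at 241 and 94.1 CPM against 870 and 727 (-2.59 ± 0.34). Of 20 tested genes of valves and collecting vessels, 3 were called higher and 0 lower, among them Sema3a, a repulsive guidance cue, with 3 and 10 UMIs, and Itga9, a valve integrin, with 3 and 5. The Itga9 call was lost without the replicate block and under 5 other settings.

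Antigen presentation genes were called lower in 7 of 21 tested and higher in 0. Beta-2-microglobulin (B2m), the shared chain of class I molecules, stood at 2216 and 1802 CPM against 5083 and 5149 (log2 -1.38 ± 0.14). H2-K1, a class I heavy chain, stood at 578 and 538 CPM against 1458 and 1450 (-1.38 ± 0.21), and the immunoproteasome subunit Psmb8 had 1 and 8 UMIs against 764 and 977 (-2.36 ± 0.38). Reads of class I genes can be shared among close relatives, so single members are uncertain. Interferon-stimulated genes gave 2 higher and 2 lower calls of 23, and Notch and arterial genes 0 higher and 2 lower of 19. Over all tested genes the shares were 2.91% higher and 2.26% lower.

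Acute-phase genes were called higher in 5 of 17 tested and lower in 0, against 2.91% and 2.26% of all tested genes. The lipocalin Lcn2, which binds bacterial iron carriers, gave 41 and 62 lymphatic UMIs, or 1975 and 834 CPM. Blood endothelial cells had 153 UMIs in mouse 1 (94.9 CPM) and 0 in mouse 2. Lrg1, a secreted leucine-rich glycoprotein, stood at 3227 and 847 CPM against 156 and 10.3. Both genes were higher in mouse 1 in each of the 2 endothelial classes, and both were also higher in mouse 1 in the fibroblast and macrophage gates. The log2 fold changes were 5.63 ± 0.29 for Lcn2 and 5.02 ± 0.25 for Lrg1, and both calls were lost without the replicate block. Ceruloplasmin (Cp), a ferroxidase, stood at 867 and 713 CPM against 76.9 and 26.2 (4.06 ± 0.28), and Lbp, which binds lipopolysaccharide, at 674 and 336 CPM against 47.8 and 18.5 (3.90 ± 0.38). Neutrophil markers gave 4 and 0 UMIs over 3 genes in these cells, or 193 and 0 CPM, against 932 and 4.12 CPM in blood endothelial cells. The 4 UMIs lay in 4 of the 13 lymphatic cells of mouse 1.

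Signalling genes of other families moved in small numbers. Of 28 tested TGF-beta and BMP genes, 3 were called higher and 4 lower, where 2.91% of all tested genes were higher and 2.26% lower. The receptor Tgfbr2 stood at 337 and 269 CPM against 40.3 and 35.0 (log2 3.02 ± 0.40). The BMP targets Id1 and Id3 were lower, Id1 at 193 and 229 CPM against 1759 and 1696 and Id3 at 289 and 847 CPM against 2250 and 2471 (-1.83 ± 0.20). Of 19 tested adrenomedullin, apelin and vasoactive genes, 2 were higher and 2 lower. Ramp2, the partner of Calcrl in the adrenomedullin receptor, stood at 963 and 820 CPM against 773 and 882 and was not called (0.00 ± 0.21, adjusted p = 1.00), while Ramp3 and Aplnr were at 0 UMIs.

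Among 25 tested growth factors, 4 were called higher and 4 lower. Pleiotrophin (Ptn), a heparin-binding factor, stood at 337 and 215 CPM against 8.69 and 9.26 (log2 4.71 ± 0.52), and the alarmin Il33 had 6 and 3 UMIs against 6 and 24 (3.55 ± 0.75, a call lost without the replicate block). The stem cell factor Kitl had 1 and 2 UMIs against 449 and 586, and Pdgfb, which recruits pericytes, was at 0. Serping1, the C1 inhibitor, was the 1 higher call of 11 complement genes, against 2 lower. Hemostasis genes gave 3 higher and 1 lower call of 15. The protease Prss23 stood at 289 and 686 CPM against 61.4 and 63.8 (3.06 ± 0.30), and von Willebrand factor (Vwf) had 0 and 2 UMIs against 309 and 273, a lower call that was lost in DESeq2. The remaining lists gave 2 higher and 2 lower calls of 10 for caveolae, 3 and 2 of 15 for scavenging receptors, 0 and 2 of 20 for immediate early and heat shock genes and 0 and 2 of 16 for the cell cycle, where 2.91% of all tested genes were called higher and 2.26% lower.

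Against all 3 other gates at once, 130 of 11482 genes (1.13%) were called highest in lymphatic endothelial cells. Of the 16 tested markers outside the gate, 11 were among them. By the smallest of the 3 fold changes, and among genes with at least 5 UMIs in each mouse, the leading genes after Gm21541 were Reln, Htr2b, AA467197, Adgrg3, Pard6g, Lcn2 and Lrg1. Reln had 0 and 3 UMIs in the fibroblast gate and 4 and 0 in the macrophage gate, which held 3104 and 5616 cells. Both Reln and Htr2b passed the filter on low counts through the lymphatic sums. Lyve1 was highest too, with a narrower margin over macrophages, at 1094 and 613 CPM in that gate against 2746 and 1815 CPM in lymphatic cells.

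Endocardial cells, the lining of the ventricular chamber, were taken as blood endothelial cells with at least 2 UMIs of Npr3 and Cytl1, and numbered 36 and 31. Against them 145 of 11057 genes (1.31%) were called higher in lymphatic cells and 119 (1.08%) lower. Cldn5 had the largest bound among the higher genes. It had 0 UMIs in all 67 endocardial cells, so lymphatic cells were at least 85.6-fold higher. Reln, AA467197 and Thy1 were at 0 in endocardial cells as well, with bounds of 35.0, 22.2 and 21.7. Tmem108, Car8, Emp3 and the matrix protein Ecm1 went the other way, with 0 lymphatic UMIs and bounds from 15.8-fold down to 10.3-fold lower. Of the genes called against blood endothelial cells, 98 of 333 higher and 49 of 258 lower ones were called the same way here; the blood endothelial class includes the endocardial cells, so these counts share samples. Of the capillary fatty acid list, 4 of 26 were lower and 1 higher against endocardial cells.

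Between the mice no test was possible, since each contributed a single library, and the lymphatic cells are described by ratios of CPM with counting intervals. Of 411 genes with at least 20 UMIs in the higher mouse, 323 had CPM within 2-fold, and 52 had a ratio whose counting interval lay above 1. Toward mouse 1 the largest ratios were 4.95 for AA467197 (2.73 to 9.13), 3.92 for the endoplasmic reticulum chaperone Hspa5 (2.53 to 6.11), 3.81 for Lrg1 (2.66 to 5.46), 3.13 for Ahnak and 2.37 for Lcn2. Blood endothelial cells of mouse 1 were higher in all of these genes too. The ratios there were 1.61 for AA467197 (4 and 3 UMIs), 1.78 for Hspa5, 15.2 for Lrg1 and 1.49 for Ahnak. Lcn2 stood at 94.9 CPM in blood endothelial cells of mouse 1 and at 0 in those of mouse 2. Toward mouse 2, Tubb2a had 1 and 23 UMIs (ratio 6.42, 1.04 to 264), Pcp4l1 and Hjurp had ratios of 5.86 and 5.58 whose intervals reached below 1, lamin A (Lmna) 2 and 39 (5.44, 1.41 to 46.5) and Klf4, a shear-responsive factor, 3 and 47 (4.37, 1.41 to 22.0). The blood endothelial ratio was 1.36 in the same direction for Klf4, and went the other way for Tubb2a (0.842) and Lmna (0.913). Gstm1, with 0 and 23 UMIs, and Rsad2, with 0 and 21, were at 0 in mouse 1, at least 2.14-fold and 1.95-fold higher in mouse 2 by the floor of 3 UMIs, and are named after their values were seen.

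**Figure D5:**
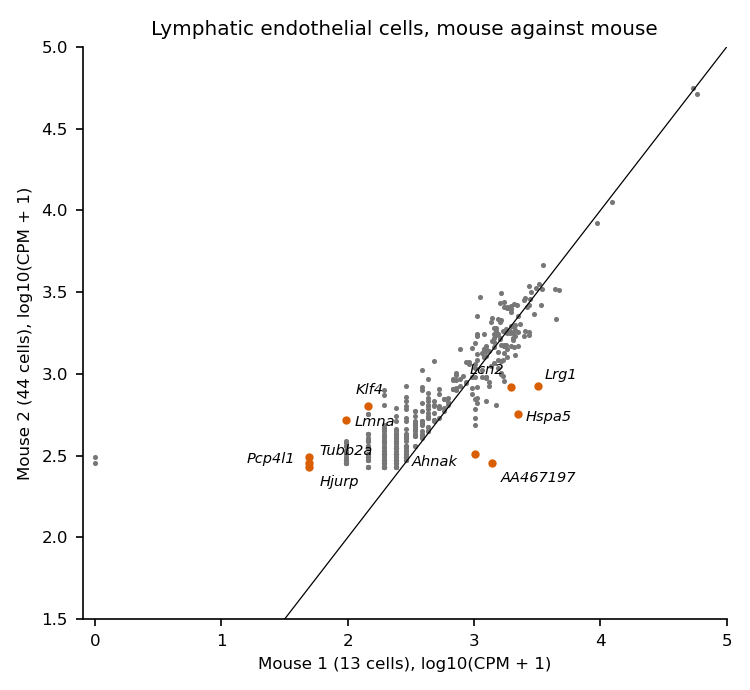
Level of 411 genes in the lymphatic endothelial cells of mouse 1 (x axis, 13 cells) and mouse 2 (y axis, 44 cells), as log10(CPM + 1); each point is a gene with at least 20 UMIs in the mouse where it was higher, the line marks equal levels, and orange marks 10 genes, the 5 with the largest ratios toward each mouse, with genes at 0 in mouse 1 ranked by their lower bound. Most points lie along the line, and the orange points lie away from it.

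Promoters of the genes called higher were searched for 4 motifs of endothelial factors on either strand, in the 250 bases before each RefSeq start (GRCm38.p6), where 246 of the higher and 8751 of the tested genes had an entry. The ETS core CCGGAAGT was found in 2 of the 246 (0.813%) and in 6.08% of all tested promoters. The SOX core AACAAT was found in 5.28% against 4.98%, the FOX core TGTTTAC in 3.25% against 2.10%, and the GATA core AGATAA in 3.66% against 5.49%. These are descriptions of letters in a window, not of binding. The promoters of the most abundant gene of the gate and of 2 markers outside it are printed, 5' to 3' in the direction of the gene, with any of the 4 motifs in capitals. Of the 3, Pdpn holds 1 motif, the FOX core.
Ccl21a (chr4:42773992-42774241, reverse strand): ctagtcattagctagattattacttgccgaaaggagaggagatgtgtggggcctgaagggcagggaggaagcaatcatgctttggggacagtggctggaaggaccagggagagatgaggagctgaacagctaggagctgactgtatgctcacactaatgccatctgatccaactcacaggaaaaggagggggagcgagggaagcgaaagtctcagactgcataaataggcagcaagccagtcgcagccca
Reln (chr5:22344706-22344955, reverse strand): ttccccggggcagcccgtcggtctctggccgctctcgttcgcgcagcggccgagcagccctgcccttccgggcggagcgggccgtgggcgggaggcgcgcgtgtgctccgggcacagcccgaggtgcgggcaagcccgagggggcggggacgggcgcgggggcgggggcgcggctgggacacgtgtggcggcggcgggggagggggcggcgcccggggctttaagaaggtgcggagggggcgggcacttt
Pdpn (chr4:143299565-143299814, reverse strand): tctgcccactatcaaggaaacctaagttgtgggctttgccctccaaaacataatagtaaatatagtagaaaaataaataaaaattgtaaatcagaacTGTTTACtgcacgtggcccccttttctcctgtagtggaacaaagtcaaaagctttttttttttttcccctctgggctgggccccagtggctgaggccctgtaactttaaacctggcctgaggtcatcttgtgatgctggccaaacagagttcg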

How the data were processed

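Per the labels, ventricular non-myocytes of 2 mice were captured with a droplet 3' kit. The authors deposited unnormalized UMI counts for each barcode and gene symbol, and per the submitters' processing notes used FastQC and Cell Ranger 2.2.0 with mm10. How barcodes were chosen is not given in the sources used here. The tables held 21355383 and 15174548 UMIs over 27998 symbols.

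UMIs of gated cells were added up within each mouse, and the sums were compared by edgeR 4.0.16 under R 4.3.3 with the quasi-likelihood F test, filterByExpr and the mouse as a replicate block, since all classes of 1 number come from the same animal. The 4 classes (lymphatic, blood endothelial, fibroblast, macrophage) gave 8 sums and 3 residual degrees of freedom, and the prior made the spread common to all genes, so p-values rest on a shared spread. The fibroblast gate asked for at least 4 Dcn UMIs and at most 3 of C1q, the macrophage gate for at least 4 of C1q and at most 3 of Dcn, each with at most 1 UMI of Pecam1, Cdh5 and Egfl7. The fit with endocardial cells held 10 sums and 4. The 10 genes of the gates and the mitochondrial genes were not tested. On simulated data, TMM factors over all genes shifted unchanged genes by -0.75 in the shallow sums, so factors came from genes of at least 500 CPM, a change from the planned scaling. The test then recovered 50 of 50 genes raised 8-fold and 34 of 50 raised 4-fold. Of genes lowered 8-fold and 4-fold it recovered 18 of 50 and 10 of 50, with 1 false call among 11202 unchanged genes. Unchanged genes kept a median shift of -0.23. The changed genes were drawn only from genes above a set level in blood endothelial cells, so these rates do not cover genes near 0 there. Genes were called at an adjusted p (Benjamini-Hochberg, over every gene tested) below 0.05 with a log2 fold change of at least 1 in size.

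Errors of log2 fold changes are SE. Intervals are exact (Clopper-Pearson for shares, binomial for ratios) at 95% and cover counting error only. The floor of 3 UMIs for a count of 0 covers counting error in that count alone and not in the higher count. Bounds written as at least are therefore not 95% limits. Cells were thinned to 1000 UMIs for shares. Doublets were called with Scrublet in scanpy 1.11.5 and kept, and an alternative left them out. Members, gates and gene lists were chosen with earlier results of these data known. Named genes were, for each direction, the 15 called genes of largest change with the same direction in each mouse and at least 5 UMIs in each mouse on the higher side, 8 for the other comparisons, up to 5 called members per list and direction, the markers, and the 5 genes with the largest ratio toward each mouse. Further called or tested members of the lists are named beside them after their values were seen. Some genes that the rule names are not reported here. Coordinates are GENCODE vM21 on mm10.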

Additional observations from a re-analysis of the deposited data

Results flagged for a closer look

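Signal of the lymphatic gate also appeared outside the lymphatic class. In the 2 libraries, 11 barcodes met the 3-gene part of the gate but exceeded the C1q or Dcn limit, 6 in mouse 1 and 5 in mouse 2, and so belong to neither endothelial class. Of these, 3 fell in the fibroblast gate and 2 in the macrophage gate, and the others in no class. They held 368 and 383 Ccl21a UMIs and 35 and 20 Lyve1 UMIs, and all of them carried at least 2 of Lyve1, Flt4, Pdpn, Reln and Fgl2. Their median depth was 4553 UMIs in mouse 1 and 3741 in mouse 2, against 1539 and 1544 for the members.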

How the results depend on the processing

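Counts of genes moved by more than 1.5 times under several settings. Genes higher than in blood endothelial cells (334) came to 207 without the replicate block, 132 with all 3 genes detected, 185 with each cell thinned to 1000 UMIs, 196 with only the 2 endothelial classes in the fit, and 216 with TMM over all genes. Genes lower (259) came to 138, 69 and 121 under the first 3 of these and to 484 with TMM over all genes. Genes highest of 4 classes (130) came to 85 in DESeq2, 59 without the block, 41 with all 3 genes detected, 64 when thinned and 68 with TMM over all genes. Against endocardial cells, the 145 higher genes came to 67 in DESeq2, 71 without the block, 68 with all 3 genes and 62 when thinned, and the 119 lower genes to 57, 44 and 58 under the last 3. The number of lymphatic cells was 17 with all 3 genes detected, and 13 or 44 with 1 mouse left out. With 1 mouse alone, where no test is possible, 314 to 323 of the 334 higher and 221 to 251 of the 259 lower genes kept at least a 2-fold difference in the same direction. These differences also carry the added fraction of a UMI, with the same limit for genes of few UMIs. Log2 fold changes that reversed were those of Emp1 (-0.056 without mouse 2) and Ccnd1 (0.26 without mouse 2, -2.95 without mouse 1), and Cxcl10 (-9.60) and Wnt2 (-7.57, both at 0 UMIs) with all 3 genes detected. Of 117 named genes, 58 stayed called under all 14 fitted alternatives. The fewer cells of the stricter and thinned settings leave fewer UMIs to test; the cause of the other shifts was not tested. In simulated counts of this depth 10 of 50 genes lowered 4-fold were called, so most falls of that size are not detectable here.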
